A study of Mus musculus with 8 samples.

Results

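Mouse embryos that inherited a block of Gtl2 transcription from their mother were compared with wild-type embryos. The mutant allele carries 3 polyadenylation cassettes, which stop transcripts soon after they begin, placed by Easi-CRISPR in the promoter of Gtl2 (also called Meg3) in the imprinted Dlk1-Dio3 domain of chromosome 12. The comparison uses 4 of the 8 labelled samples, 2 of wild-type embryos (WT) and 2 of embryos with a maternal knock-in (MKI), all whole embryos; embryos with a paternal knock-in (PKI) or with both (HOMO) carry the same inserted allele and are given beside them. The design text places all embryos at day 12.5, whereas the sample titles give PKI, MKI and HOMO successively later ages, by a few hours each, so that age by title and genotype cannot be told apart. Strain, founders and pooling of embryos are not stated in the sources used here. The mRNA, long non-coding RNA and microRNA tables have a single column for each genotype, so every difference below is between single columns, has no replicate check and carries no p-value. Features were kept at 1 FPKM or more (fragments per kilobase of transcript, scaled to sequencing depth, mRNA), 0.5 FPKM or more (long non-coding RNA) or 10 RPM or more (reads scaled to the microRNA total, microRNA) in at least 2 of the 4 columns, which left 13279 mRNA genes of 29639 deposited entries (40 entries that share 20 symbols were summed), 6181 of 29158 long non-coding transcripts and 505 of 2395 small RNAs. A difference is MKI minus WT on the log2(value + 0.5) scale, which understates low features, and 2-fold means at least 1 on that scale. Sets of 4 values are in the order WT, PKI, MKI and HOMO throughout.

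In an imprinted domain the copy from one parent is active for a given gene. From the maternal copy of Dlk1-Dio3 a long run of non-coding RNA is read, beginning at Meg3 and passing through the transcript antisense to Rtl1, Rian and Mirg, and many microRNAs are cut out of it; Dlk1, Rtl1 and Dio3 code for proteins and are paternally expressed. A microRNA recognises its target RNAs mainly by its seed, bases 2 to 8 from the 5′ end, so microRNAs that share a seed share most of their predicted targets.

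The microRNAs of the domain were all far below WT in MKI embryos, and the sequences below show their seeds beside those of microRNAs outside the domain. Mature sequences are those of RefSeq on GRCm38, printed 5′ to 3′ with the seed in capitals; 426 of the 505 microRNAs kept matched one by name. The first 6 are the domain microRNAs highest in WT. The next 4 are the ones with the least and the most left in MKI at 1000 or more WT reads (miR-341-3p and miR-494-3p), and a member whose seed is found outside the domain with its counterpart on the X chromosome (miR-329-3p and miR-362-3p). The last 4 lie outside the domain and form pairs that share a seed, the miR-30 pair lower and the miR-19 pair higher in MKI than in WT.
miR-127-3p: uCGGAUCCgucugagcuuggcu
miR-541-5p: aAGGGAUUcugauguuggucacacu
miR-434-5p: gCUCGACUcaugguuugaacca
miR-370-3p: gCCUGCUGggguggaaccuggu
miR-381-3p: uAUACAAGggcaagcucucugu
miR-379-5p: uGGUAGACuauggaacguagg
miR-341-3p: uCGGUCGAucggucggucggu
miR-494-3p: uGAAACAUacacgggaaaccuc
miR-329-3p: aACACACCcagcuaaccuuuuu
miR-362-3p: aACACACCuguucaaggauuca
miR-30a-3p: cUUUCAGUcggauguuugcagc
miR-30e-3p: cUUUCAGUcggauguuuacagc
miR-19a-3p: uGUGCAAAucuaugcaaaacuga
miR-19b-3p: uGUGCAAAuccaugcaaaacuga

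All 77 domain microRNAs kept were at least 2-fold lower in MKI than in WT. Of all microRNAs kept, 17.2% of features were 2-fold lower and 2.57% higher on the deposited scale, and 15.4% and 21.4% after quantile normalization, which gives the 4 columns the same distribution of values and moved the median microRNA from -0.08 to 0.53. The domain medians were -4.86 and -3.99 on those scales, and 76 of the 77 stayed 2-fold lower after quantile normalization. Whole reads were recovered from the deposited values, 8405962 in WT and 8638401 in MKI, so 1 read was worth 0.119 RPM in WT and 0.116 RPM in MKI. Intervals on reads are exact conditional 95% intervals and cover counting error only.

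The share left in MKI was not the same along the domain. The 19 microRNAs of the proximal group, which lie 22.7 to 54.4 kb from the RefSeq start of Meg3, summed to 48496 RPM in WT and 906 RPM in MKI, 1.87% of WT (1.83 to 1.91%). This group is named here for the transcript antisense to Rtl1, but the host transcript of each member was not checked. Its member nearest to the start of Meg3 is miR-770-3p, at 22.7 kb. The 54 of the miR-379 cluster, at 168 to 207 kb where a position was found, summed to 76682 and 2760 RPM, 3.60% of WT (3.55 to 3.65%). The counting intervals of the proximal and the distal group do not overlap. Between them, at 70.6 to 77.3 kb, the 4 microRNAs of the Rian group summed to 11819 and 409 RPM. That is 3.46% of WT (3.35 to 3.58%), with an interval that overlaps that of the distal group. In HOMO the proximal and distal totals were 2.86% and 3.20% of WT, closer to each other than in MKI, and the Rian total was 3.44%. Among 48 domain microRNAs with a position and at least 1000 WT reads, Spearman's rho between distance and the percent of WT left was 0.62 in MKI and 0.32 in HOMO, and 0.11 for PKI; these describe microRNAs that share a library and a transcript, and are not independent.

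**Figure D1:**
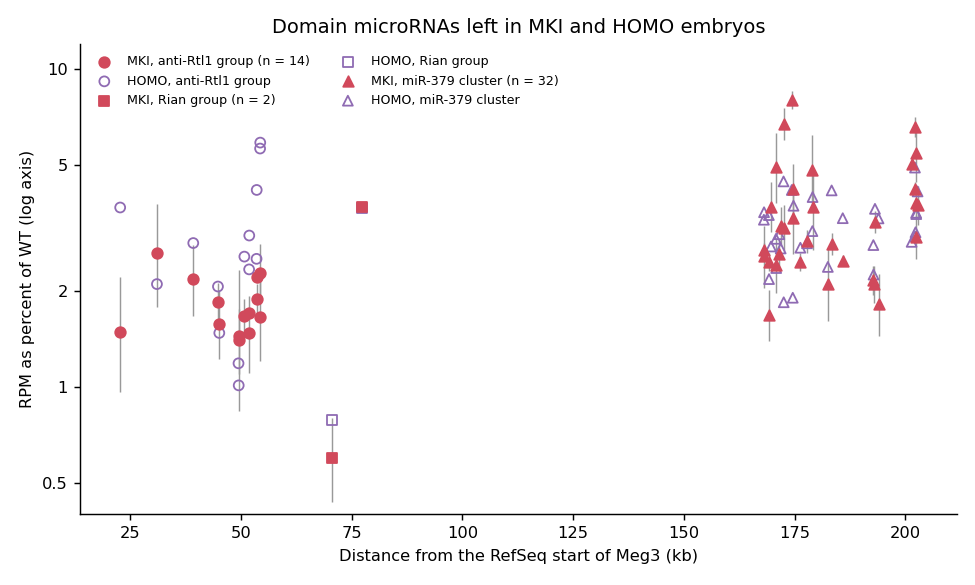
Percent of the WT level left (log axis) against the distance of each domain microRNA from the RefSeq start of Meg3 in kb, for the 48 with a position and at least 1000 WT reads; filled symbols are MKI with exact 95% counting intervals, open symbols HOMO. The 14 of the proximal group, named for the transcript antisense to Rtl1, lie between 1.40% and 2.64% in MKI, while the distal cluster reaches 8.02%.

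Within each group single microRNAs spread further. miR-341-3p, encoded in the Rian span at chr12:109611556-109611576, had 869, 662, 5.21 and 6.86 RPM, 0.599% of WT in MKI. In the same span miR-370-3p, at chr12:109618305-109618326, had 10859, 7965, 399 and 398 RPM, or 3.67%. These neighbours therefore differed by more than the proximal and distal group totals did. In the miR-379 cluster miR-494-3p stood at 1376, 2081, 110.3 and 57.4 RPM, 8.02% of WT in MKI, and miR-541-5p, highest in WT of that cluster, at 19152, 23305, 965 and 549 RPM, 5.04%. Both were lower still in HOMO, whereas miR-127-3p was at 26481, 26139, 455 and 794 RPM, lower in MKI than in HOMO. Of the 77, 47 held a smaller percent of WT in MKI than in HOMO. miR-1188-5p had 116 reads in WT and 0 in MKI, at least 39.7-fold lower when the 0 is replaced by its upper limit of 3 reads.

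The seeds lost with the domain had few other carriers among measured microRNAs with a matched sequence. Such a sequence was found for 352 (82.2%) of the microRNAs kept outside the domain, and the seeds of the rest are unknown here. Counting seeds with a total of 50 RPM or more in WT or MKI, 58 belonged to at least 1 domain microRNA, and for 55 of these no microRNA outside the domain reached 10 RPM in WT. The total of 56 of the 58 was 2-fold lower in MKI. For the other 3 an outside microRNA was present. The seed of miR-329-3p is also that of miR-362-3p, which stood at 53.8, 80.8, 68.6 and 74.5 RPM, so that 14.5% of the WT total of that seed was left, against 3.18% for miR-329-3p alone. The seed shared by miR-377-5p and miR-672-5p kept 78.1% of its WT total, and that of miR-412-3p, which contributed 1.04% of the WT total, and miR-1983 stood at 133%.

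Outside the domain 428 microRNAs were kept, of which 13 were 2-fold higher and 10 lower in MKI, with a median of 0.03. After quantile normalization 108 were higher and 2 lower, with a median of 0.68, so the upward count depends on the scaling, and rescaling to the total outside the domain left 4 higher in the whole table. Of the 10 lower, 8 were also 2-fold lower in HOMO than in PKI, a pair that shares no column with MKI and WT and in which 17.4% of all microRNAs kept were lower and 4.75% higher. Of the 13 higher, 0 were also 2-fold higher in HOMO than in PKI, and 12 stood above WT in PKI as well. The plot of these 23 microRNAs shows the difference in pattern: in most of the lower ones MKI and HOMO lie together below WT and PKI, and in most of the higher ones WT lies below the other 3 columns.

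**Figure D2:**
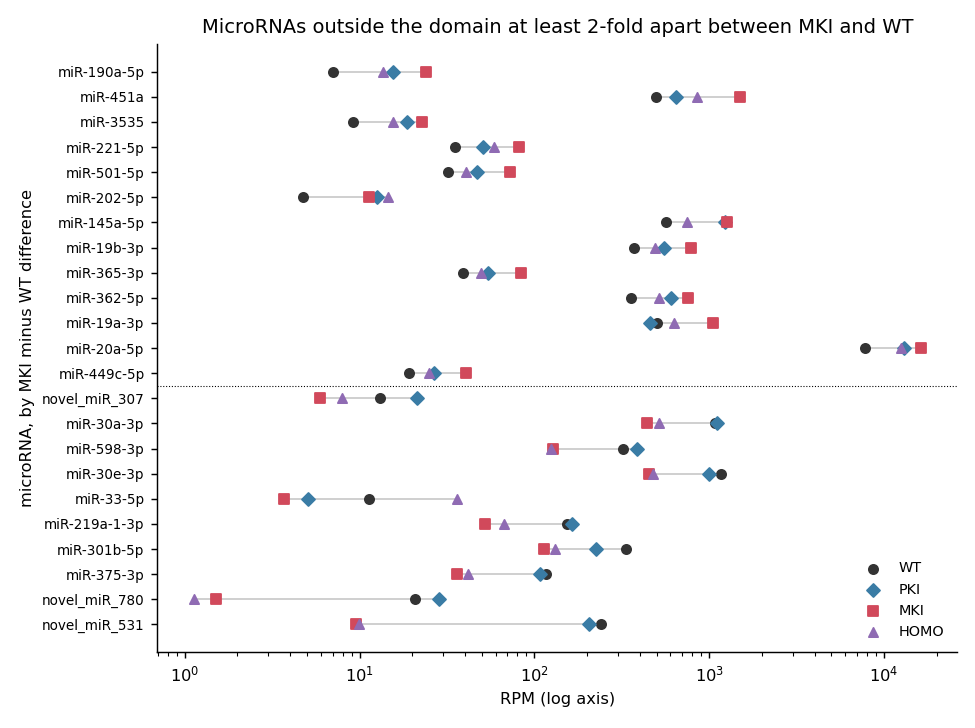
RPM (log axis) in the 4 columns for the 23 microRNAs, not among the named domain microRNAs, that were at least 2-fold apart between MKI and WT. They are ordered by that difference, and symbols are single columns with no error. Below the dotted line are the 10 lower in MKI, where miR-30e-3p stood at 454 RPM in MKI against 1161 in WT.

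The lower ones included passenger arms whose partner from the same precursor was higher. A microRNA precursor, or hairpin, can give a product from each of its arms, named 5p and 3p. miR-30e-5p was at 5368, 5284, 9660 and 7252 RPM, while miR-30e-3p was at 1161, 1002, 454 and 476 RPM. The 5p arm thus made up 82.2% of the pair in WT and 95.5% in MKI. For miR-30a, whose arms carry the same 2 seeds as those of miR-30e, the 5p share was 90.2%, 91.3%, 97.4% and 96.5%. The seed of both 3p arms summed to 2237, 2112, 893 and 995 RPM, so that MKI and HOMO held less than WT and PKI. The arm with more reads in WT was not always the one favoured: the 5p share of miR-301b was 81.5%, 75.6%, 54.1% and 64.8%. Among 101 hairpins outside the domain with at least 100 WT reads in each arm, the arms lay on opposite sides of WT in 51, and they were 2-fold apart in 9, with an SD of 0.63 for the difference between arms.

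Other microRNAs outside the domain differed by family. The 6 microRNAs with the seed of miR-17 and miR-20a, which are made from clusters linked to cell growth, summed to 19529, 29574, 36584 and 29165 RPM, a difference of 0.91. miR-19a-3p and miR-19b-3p, with another seed from the same clusters, summed to 870.1, 1006, 1847 and 1122 RPM, a difference of 1.09. miR-7a-5p and miR-7b-5p summed to 19977, 19393, 38042 and 22953 RPM, a difference of 0.93 in which MKI stood above each of the other 3 columns. The erythroid miR-451a, at 493, 647, 1501 and 854 RPM, had the largest upward difference at 50 RPM or more, 1.61. The 15 members of the let-7 family, which rise as cells differentiate, had a median of -0.05 and a range of -0.44 to 0.41, with none past 2-fold. The 17 microRNAs of the imprinted Sfmbt2 cluster, a paternally expressed cluster on another chromosome, had a median of -0.08, and the 10 of other imprinted hosts -0.19, also with none past 2-fold; after quantile normalization these 3 medians were 0.33, 0.64 and 0.62, with 3, 2 and 1 members 2-fold higher. The base composition of the mature sequence moved with the difference: of 76 outside microRNAs under 40% G and C 56 were above WT (median 0.31), and of 48 at 60% or more 15 were (median -0.18). Spearman's rho with the GC percent was -0.33 over 352 microRNAs in MKI minus WT, -0.13 in HOMO minus WT and -0.18 in PKI minus WT; its part in the single differences was not tested.

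The mRNA column of MKI stood apart from the other 3. On the deposited scale 162 genes (1.22%) were 2-fold higher in MKI than WT and 2532 (19.1%) lower, whereas quantile normalization gave 642 higher (4.83%) and 1454 lower (10.9%) and moved the median gene from -0.11 to 0.14. The SD of the difference over all genes was 0.82, against 0.40 for PKI minus WT and 0.36 for HOMO minus WT. Of the 2532 lower, 2491 were below all 3 other columns in MKI, and 1760 were at least 2-fold below the lowest of them. Of the 162 higher, 136 were above all 3 and 36 at least 2-fold above the highest. These counts therefore describe 1 column against 3, and give no separate account of the maternal insertion, which HOMO also carries. 1449 of the 2532 lower and 161 of the 162 higher genes passed 2-fold in the same direction after quantile normalization.

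Short genes were lower in MKI. The RefSeq gene span, from first to last base on GRCm38 with introns, was found for 12541 of the 13279 genes. The median difference was -1.47 for 118 genes under 1 kb, -0.74 for 1330 of 1 to 5 kb and -0.58 for 1528 of 5 to 10 kb, then -0.15 for 5862 of 10 to 50 kb, 0.15 for 1827 of 50 to 100 kb and 0.14 for 1876 over 100 kb. The share 2-fold lower went from 63.6% of the shortest class to 4.21% of the longest. In HOMO minus WT the medians ran from 0.02 to -0.11 over the same classes. Spearman's rho of span with the difference was 0.35 for MKI minus WT, -0.15 for HOMO minus WT and -0.29 for PKI minus WT, across genes that are not independent replicates. By chromosome, medians lay between -0.57 (chromosome 7, 925 genes) and 0.17 (the X chromosome, 443 genes), and chromosome 12 was at 0.10. The part of gene span in the differences of single genes and lists below was not tested.

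**Figure D3:**
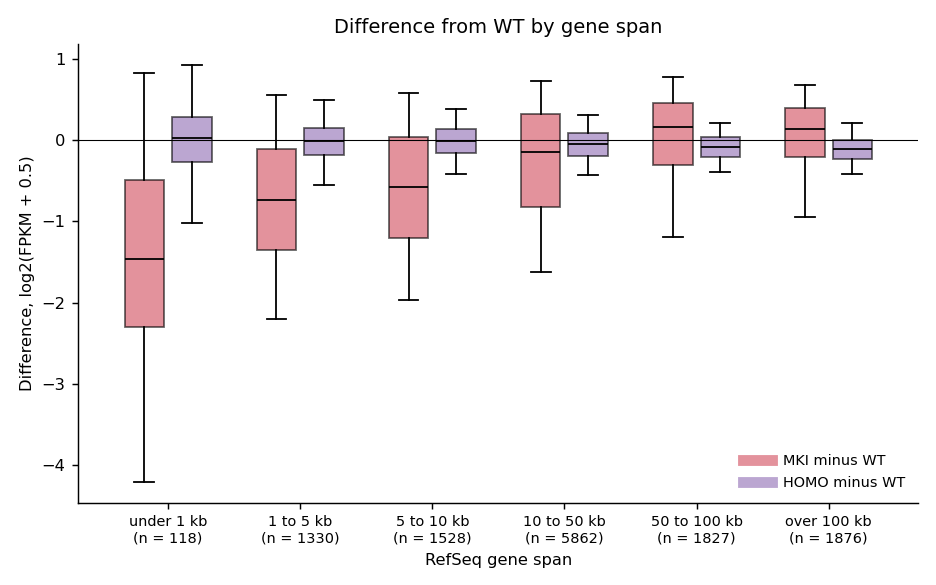
Difference from WT on the log2(FPKM + 0.5) scale by RefSeq gene span, for MKI (red) and HOMO (violet); boxes span the quartiles with the median as a line and whiskers the 5th to 95th percentiles of genes. The MKI medians climb from -1.47 under 1 kb to 0.14 over 100 kb, while the HOMO medians stay between 0.02 and -0.11.

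Replication-dependent histone genes were the list furthest below WT. These genes supply histones during DNA synthesis, have no introns and make most of their transcripts without a poly(A) tail, and the libraries were made from oligo(dT)-selected RNA. Of the 64 kept 57 were 2-fold lower and 1 higher, with a median of -2.29, or -2.25 after quantile normalization, and in 59 MKI was below all 3 other columns. Hist1h2ai was at 189, 535, 3.93 and 283 FPKM (-5.42), Hist1h2ae at 166, 234, 5.63 and 79.4 FPKM (-4.76) and Hist4h4 at 85.8, 84.6, 3.23 and 42.0 FPKM (-4.53). In each of these MKI lay more than 10-fold below the lowest other column. The exception was Hist1h3d at 23.8, 0.520, 167 and 116 FPKM (2.78), where WT and PKI lay below MKI and HOMO. Histone genes are close copies of each other, so the split of reads among them is uncertain. In a list of 15 histone variant, linker histone and high mobility group genes, H2afx, which marks DNA breaks once phosphorylated, was at 193, 231, 13.1 and 156 FPKM (-3.83) and H1fx at 25.9, 32.6, 2.35 and 21.5 FPKM (-3.21), while the list median was -0.30 and H3f3b, encoding the replacement histone H3.3, stood at 268, 248, 333 and 248 FPKM (0.31). Cell division genes as a list did not share the low values: of 40 kept 2 were 2-fold lower (Ccnd3, 64.4 against 14.1 FPKM, and Cdt1, 22.0 against 7.16 FPKM in MKI) and the median was 0.03.

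**Figure D4:**
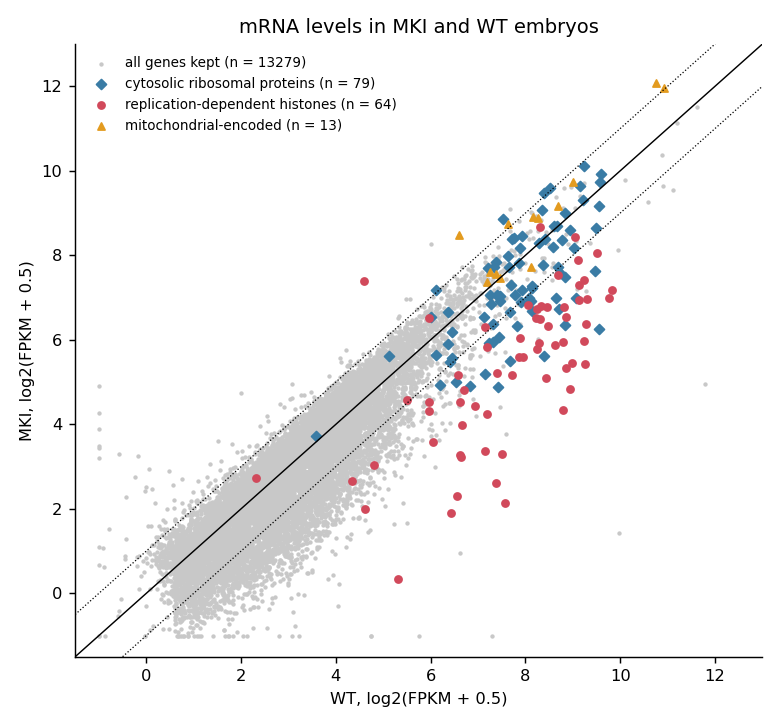
Level in MKI against WT for the 13279 genes kept, both as log2(FPKM + 0.5), with equality as a solid line and 2-fold as dotted lines. Of the 64 replication-dependent histone genes (circles) 57 lie below the lower dotted line, the 13 mitochondrial-encoded genes (triangles) lie at or above equality except mt-Atp8, and the 79 ribosomal protein genes (diamonds) lie on both sides.

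Mitochondrial transcripts were mostly above WT in MKI, and the nuclear genes for the same complexes were more often below it, 50 of 68, than above it. Of the 13 mitochondrial-encoded genes, which code for core subunits of the respiratory chain, 12 were above WT in MKI and 4 at least 2-fold, with a median of 0.61 (0.81 after quantile normalization). The 2-fold higher share was 30.8%, against 1.22% of all genes. After quantile normalization 5 were 2-fold higher, against 4.83% of all genes. mt-Nd1 was at 96.1, 95.8, 355 and 211 FPKM (1.88), mt-Co2 at 198, 151, 424 and 255 FPKM (1.10) and mt-Co1 at 1936, 2464, 3969 and 2577 FPKM (1.04), MKI being highest in all 3. Of 68 nuclear genes for respiratory chain subunits 22 (32.4%) were 2-fold lower and 1 (1.47%) higher, against 19.1% and 1.22% of all genes. After quantile normalization 17 were lower and 4 higher, against 10.9% and 4.83% of all genes. The list medians were -0.59 as deposited and -0.48 after quantile normalization, against -0.11 and 0.14 over all genes. Cox8a, a subunit of cytochrome oxidase, was at 123, 138, 17.8 and 111 FPKM (-2.76) and Atp5g2, of the ATP synthase ring, at 57.2, 82.7, 9.09 and 58.8 FPKM (-2.59). Uqcrb, of the cytochrome bc1 complex, was at 46.9, 70.3, 124 and 52.4 FPKM (1.39), so subunits of single complexes differed in both directions.

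Genes for the parts of other complexes also lay on both sides of WT in MKI, with a spread close to that of all genes or narrower except for the cytosolic ribosome. Of 79 cytosolic ribosomal protein genes 24 were 2-fold lower and 4 higher (median -0.43, -0.25 after quantile normalization), against 19.1% and 1.22% of all genes. Rps14 was at 745, 1185, 75.5 and 591 FPKM (-3.29) and Rps19, the gene most often mutated in Diamond-Blackfan anaemia, at 336, 409, 48.3 and 236 FPKM (-2.79). Rps25 was at 183, 442, 464 and 382 FPKM (1.34) and Rps12 at 336, 494, 716 and 495 FPKM (1.09). The SD of the difference over the 79 genes was 0.98 in MKI minus WT, 0.58 in HOMO minus WT and 0.33 in PKI minus WT, against 0.82, 0.36 and 0.40 over all genes. For 31 proteasome genes these SDs were 0.55, 0.16 and 0.19 around a median of 0.00 in MKI, for 44 spliceosome genes 0.70, 0.22 and 0.33 around -0.07 (0.05 after quantile normalization), and for 50 mitochondrial ribosome genes 0.79, 0.23 and 0.26 around -0.31. In the proteasome Psma3 was at 39.9, 58.5, 93.8 and 42.7 FPKM (1.22) and Psmb4 at 94.4, 126, 41.8 and 98.2 FPKM (-1.17). Snrpb, a core protein of spliceosomal snRNPs, was at 96.5, 103, 21.0 and 85.5 FPKM (-2.18). Translation factor genes had a median of 0.13, with Eif3a at 57.1, 48.2, 113 and 48.2 FPKM (0.97) and Eef2 at 661, 647, 311 and 711 FPKM (-1.09).

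Signalling lists had more members below WT than above it in MKI, and their shares of 2-fold lower genes are to be read against 19.1% of all genes as deposited and 10.9% after quantile normalization. In the Notch pathway, by which neighbouring cells hold each other in a progenitor state, 10 of 23 genes were 2-fold lower and 0 higher, with a median of -0.90 (8 lower and -0.55 after quantile normalization), and in 18 MKI was below all other columns. Among ligands Dll3 was at 6.07, 4.07, 1.54 and 6.75 FPKM (-1.69) and Jag2 at 4.01, 4.40, 1.04 and 4.20 FPKM (-1.55). The receptor gene Notch3 was at 26.5, 16.9, 7.06 and 26.4 FPKM (-1.84) and the target gene Hes5 at 21.9, 15.2, 2.99 and 17.7 FPKM (-2.68). Hes6, of the same gene family, was at 31.7, 21.9, 6.16 and 28.7 FPKM (-2.27). The other Hes and Hey genes of the list, Heyl, Hes1, Hey1 and Hey2, differed by -0.90, -0.41, -0.04 and 0.60. Rbpj, the DNA-binding partner through which the receptors act, was above WT at 12.4, 7.64, 20.9 and 9.46 FPKM (0.74). Of 32 Wnt pathway genes 8 (25.0%) were 2-fold lower, or 5 after quantile normalization (medians -0.46 and -0.16), among them the receptor genes Fzd2 at 40.9, 39.5, 6.20 and 35.9 FPKM (-2.63) and Fzd10 (9.72 against 2.62 FPKM in MKI). Of 14 Hedgehog genes 5 (35.7%) were lower, or 2 after quantile normalization (medians -0.48 and -0.31), with the target Gli1 at 5.42, 5.25, 1.54 and 5.11 FPKM (-1.54) and the signal transducer Smo at 36.2, 38.8, 13.8 and 33.9 FPKM (-1.37); Shh itself was at 2.53, 1.54, 2.95 and 2.48 FPKM. Of 36 genes for BMP and TGF-beta signals 8 (22.2%) were lower, near the share of all genes, or 2 after quantile normalization (medians -0.17 and 0.04), including the targets Id1 (36.4 against 12.5 FPKM) and Id3 (28.0 against 5.35 FPKM), while the receptor gene Bmpr2 stood at 24.9 against 43.5 FPKM. Members of 1 pathway thus lay on both sides of WT, as Rbpj, Shh and Bmpr2 show.

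**Figure D5:**
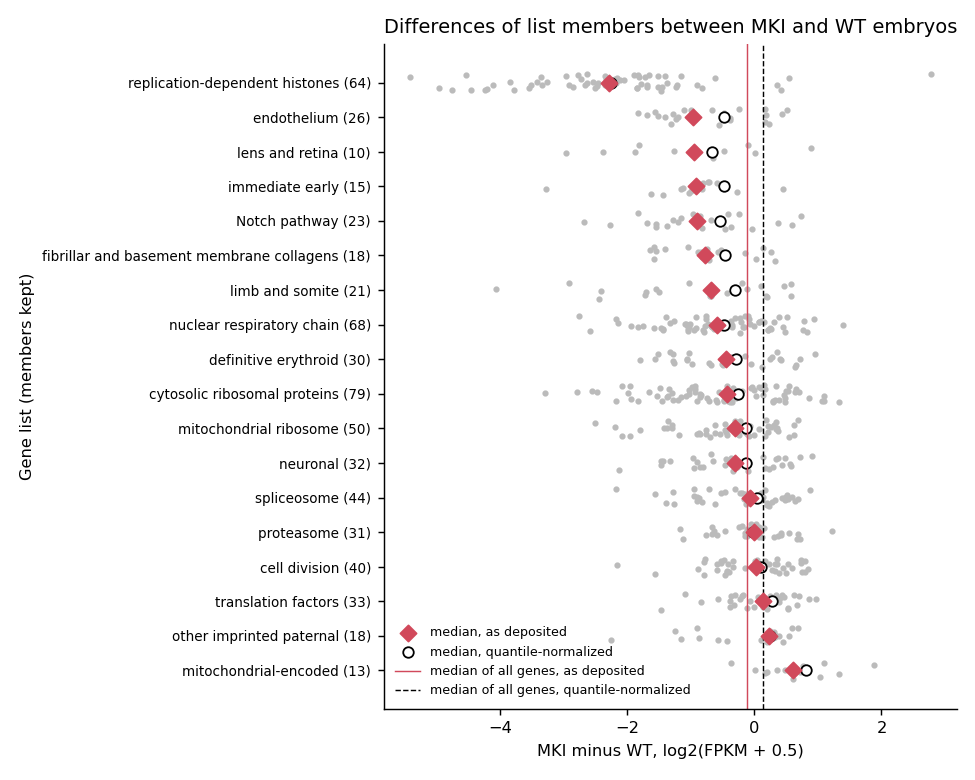
Differences between MKI and WT on the log2(FPKM + 0.5) scale for members of 18 gene lists (grey points, number kept in brackets), with list medians as deposited (diamonds) and after quantile normalization (circles); vertical lines are the medians of all genes on the 2 scales. Replication-dependent histones lie furthest left at a median of -2.29 and mitochondrial-encoded genes furthest right at 0.61.

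Among growth factor genes of the insulin-like axis, which drives fetal growth, 3 of 16 (18.8%) were 2-fold lower, close to the 19.1% of all genes. Igfbp2, a binding protein, was at 67.8, 94.7, 7.40 and 55.7 FPKM (-3.11), Igfbp4 at 72.4, 81.3, 31.1 and 71.9 FPKM (-1.21) and Igf2 at 380, 380, 170.2 and 394 FPKM (-1.15, or -0.86 after quantile normalization). Igf1, Igfbp3 and Igf2bp3 were above WT by 0.57 to 0.58, and the list median was -0.08 (0.02 after quantile normalization). Igf2 is read from the paternal copy, as are Nnat, at 309, 262, 64.2 and 208 FPKM (-2.26), Peg3, at 117, 115, 176 and 107 FPKM (0.59), and Peg10, at 97.5, 63.8, 142 and 96.3 FPKM (0.54). Over 18 genes listed as paternally expressed in other imprinted domains 11 were above WT and 3 at least 2-fold lower. Those above WT include Zim1 (0.39), which is maternally expressed in mouse and is misplaced in that list. Over 11 genes listed as maternally expressed 6 were above WT and 2 lower. Neither imprinted list thus lay to 1 side. Of the protein-coding genes in the domain itself, Rtl1, a retrotransposon-derived gene, stood at 1.02, 0.610, 2.28 and 2.51 FPKM (0.87 as deposited, 1.43 after quantile normalization), so its call depends on the scaling, and Dlk1, at 80.5, 55.7, 83.4 and 181 FPKM, differed from WT by 0.05 in MKI (0.14 after quantile normalization) and between HOMO and PKI by 1.69. Dio3 did not pass the filter, at 0.568, 0.416, 0.217 and 1.42 FPKM. Of 18 genes flanking the domain 3 were 2-fold lower as deposited and 0 after quantile normalization.

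Cell type and organ lists also mixed low and near-WT members, and their shares too are to be read against 19.1% of all genes as deposited and 10.9% after quantile normalization. In whole-embryo RNA, fewer cells of a type and less RNA per cell cannot be told apart. Of 26 endothelial genes 10 were 2-fold lower (3 after quantile normalization; medians -0.96 and -0.47). The tight junction gene Cldn5 was at 7.48, 7.00, 1.99 and 6.95 FPKM (-1.68) and the transcription factor gene Sox18 at 4.35, 4.75, 1.20 and 4.80 FPKM (-1.51), whereas Pecam1, which marks the same cells, was at 10.4, 8.18, 15.1 and 14.3 FPKM (0.51) and Emcn at 5.43, 5.90, 7.56 and 6.15 FPKM (0.44). The defining markers of endothelium therefore lay on both sides of WT. In the erythroid list 10 of 30 (33.3%) were lower, or 5 after quantile normalization (medians -0.45 and -0.29): the adult-type globin gene Hbb-bs was at 2201, 1123, 744 and 1972 FPKM (-1.57) and Epor, the erythropoietin receptor, at 6.96, 2.74, 1.65 and 5.52 FPKM (-1.79). Reads of the closely similar globin genes may be shared among them. The 3 embryonic globins lay apart: Hbb-bh1 was at 220.2, 548, 91.3 and 374 FPKM (-1.27), Hbb-y at 2334, 3798, 2237 and 5619 FPKM (-0.06) and Hba-x at 400.0, 368, 663 and 1059 FPKM (0.73).

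Liver genes divided as well. Of 26 hepatocyte genes 13 were above WT and 13 below, 8 of them 2-fold lower (median -0.01, or 0.18 after quantile normalization). Alb, encoding serum albumin, was at 205, 81.1, 542 and 259 FPKM (1.40), highest in MKI, and the fibrinogen genes Fgb and Fgg were above WT by 0.79 and 0.78. Cebpa, a transcription factor gene of hepatocytes, was at 1.95, 2.10, 0.221 and 1.40 FPKM (-1.77), and Serpina1b, one of several near-identical copies, at 16.8, 1.66, 3.33 and 4.31 FPKM (-2.17). The secreted protein genes thus did not move together.

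Limb, lens, collagen, cartilage and muscle lists held members far below WT, though not all of them more often than other genes. Of 21 limb and somite genes 9 (42.9%) were 2-fold lower, or 7 after quantile normalization (medians -0.68 and -0.31): Msx1, a homeobox gene of limb and face mesenchyme, was at 7.90, 13.4, 0 and 12.5 FPKM and Msx2 at 2.15, 4.11, 0 and 2.28 FPKM, both listed at 0 in MKI. Pitx1, which sets hindlimb identity, was at 10.04, 11.97, 0.904 and 10.4 FPKM (-2.91), whereas Prrx1, expressed through limb mesenchyme, was at 38.5, 50.5, 57.6 and 43.9 FPKM (0.57). Of 17 cartilage and bone genes 5 (29.4%) were lower, or 2 after quantile normalization (medians -0.22 and -0.14), Col2a1 among them at 68.0, 27.8, 18.8 and 58.1 FPKM (-1.83), and Sox9, which activates it, was at 26.5, 19.7, 33.0 and 30.0 FPKM (0.31). Of 18 collagen genes of fibrils and basement membranes 6 (33.3%) were lower on either scale (medians -0.78 and -0.47), including Col4a1 at 32.2, 20.4, 10.4 and 35.4 FPKM (-1.58) and its partner Col4a2 at 21.8, 13.3, 7.09 and 24.4 FPKM (-1.55), with Col12a1 at 18.9, 14.7, 23.8 and 17.3 FPKM (0.33). Of 23 skeletal muscle genes 4 (17.4%) were lower, below the share of all genes, or 3 after quantile normalization, with the regulators Myog at 20.5, 20.6, 5.17 and 19.9 FPKM (-1.89) and Myod1 at 13.2, 10.1, 4.87 and 14.4 FPKM (-1.35) and the contractile gene Myh3 at 19.1, 9.81, 27.1 and 19.3 FPKM (0.49). Of 10 lens and retina genes 5 were lower, or 4 after quantile normalization, with the crystallin gene Crybb1 at 5.54, 2.83, 0.278 and 5.13 FPKM (-2.96) and Cryba1 at 11.0, 6.80, 20.9 and 12.3 FPKM (0.89). In each of these 5 lists another member stood above WT.

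Nervous system lists were closer to the background. Of 32 neuronal genes 5 (15.6%) were 2-fold lower, or 3 after quantile normalization, with Tubb3, the neuronal tubulin, at 183, 121, 41.4 and 170.0 FPKM (-2.13) and Elavl4, an RNA-binding protein of young neurons, at 18.1, 11.3, 34.2 and 14.9 FPKM (0.90). Of 22 neural progenitor genes 5 (22.7%) were lower, or 2 after quantile normalization, among them Sox3 at 3.83, 3.09, 1.35 and 4.54 FPKM (-1.23), while Fabp7 of radial glia was at 111, 123, 205 and 112 FPKM (0.89). Lists of immediate early, cholesterol synthesis and p53 target genes are not of the nervous system. Their shares are to be read against 19.1% of all genes as deposited and 10.9% after quantile normalization. Immediate early genes, which respond within minutes to stimuli and handling, included 6 lower of 15 (40%), or 3 after quantile normalization (medians -0.92 and -0.48). Jund was at 42.4, 46.7, 3.93 and 33.2 FPKM (-3.28) and Ier2 at 15.0, 17.3, 4.54 and 17.9 FPKM (-1.62). Of 22 cholesterol synthesis genes 7 (31.8%) were lower, or 5 after quantile normalization, with Mvk at 16.5, 15.1, 4.68 and 16.0 FPKM (-1.72) and Msmo1 at 25.6, 30.0, 41.7 and 27.9 FPKM (0.69). Of 17 targets of p53 kept 7 (41.2%) were lower, or 4 after quantile normalization (medians -0.09 and 0.06), Bax being at 26.9, 32.6, 8.52 and 26.4 FPKM (-1.60) and Ccng1 at 14.9, 16.3, 22.2 and 10.5 FPKM (0.55).

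The largest single differences among genes with a symbol were in part shared with another column. Ccnb1ip1, which acts in meiotic recombination, was at 1012, 2339, 2.21 and 1.24 FPKM (-8.54), high in WT and PKI and low in MKI and HOMO. Gm49450 was at 53.7, 0, 0 and 57.7 FPKM, so MKI was listed at 0 together with PKI. Arf6, a small GTPase of membrane traffic, was at 26.3, 30.3, 0 and 27.4 FPKM, Blcap at 26.1, 22.5, 0 and 27.3 FPKM and Raver1, a splicing coregulator, at 8.81, 16.8, 0 and 20.2 FPKM. With Msx1 and an assembled gene these are the 5 entries at 0 in MKI and at 5 FPKM or more in the other 3 columns, against 5 such entries for WT, 0 for PKI and 1 for HOMO. For WT 4 of the 5 are the Y-linked genes Eif2s3y, Uty, Ddx3y and Kdm5d, for example Eif2s3y at 0, 14.4, 29.7 and 14.9 FPKM; embryo sex is not stated in the sources used here, and sex and genotype cannot be told apart in this comparison.

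Genes higher in MKI and abundant included S100a11, a calcium-binding protein, at 44.1, 57.1, 124 and 64.2 FPKM (1.48), Zc3h11a, an mRNA export factor, at 18.1, 22.0, 53.3 and 20.8 FPKM (1.53), and mt-Co3 at 1721, 2850, 4349 and 1254 FPKM (1.34). At lower levels Pnp2, a purine nucleoside phosphorylase with a close copy beside it, was at 0.351, 1.92, 6.22 and 1.53 FPKM (2.98) and Syce2, of the synaptonemal complex, at 7.74, 9.87, 23.8 and 10.3 FPKM (1.56). In all but the histone gene Hist1h3d, mt-Nd1 and Alb among the 8 largest upward differences at 50 FPKM or more, HOMO was within 2-fold of PKI or below it. By abundance, 27.0% of the 359 genes with a mean of 100 FPKM or more over the 4 columns were 2-fold lower. The share was 13.4% of 2402 at 20 to 100 FPKM, 19.3% of 5951 at 5 to 20 FPKM and 21.2% of 4567 under 5 FPKM. The most abundant class includes many replication-dependent histone genes, of which 57 of 64 were lower, and its share without them was not computed.

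HOMO minus PKI measures a maternal insertion on the other paternal background and shares no column with MKI minus WT. There 206 genes (1.55%) were 2-fold higher and 175 (1.32%) lower. Of these, 61 genes were lower in both pairs, 2.41% of the MKI list and 34.9% of the HOMO list, and 13 were higher in both, 8.02% and 6.31%. In the other direction 58 genes lower in MKI than WT were higher in HOMO than PKI. Among the 61, 9 were replication-dependent histone genes, such as Hist1h2an at 182, 353, 9.41 and 122 FPKM, and 24 were assembled genes without a symbol. Of all 13279 genes kept, 64 were such histone genes, 57 of them 2-fold lower in MKI than WT, and 656 had no symbol. Ccnb1ip1 differed by -8.54 and -10.40 in the 2 pairs. Among the assembled genes, chosen after their values were seen, newGene_16265 stood at 16.0, 9.47, 0.318 and 0.304 FPKM and newGene_16261 at 16.2, 9.03, 0.662 and 0.139 FPKM, whose positions were not used here. Krt14, a keratin of basal epidermis, was at 7.23, 15.0, 0.905 and 6.24 FPKM (-2.46 and -1.20), where PKI stood above WT. Among the 13, Tpm3, a tropomyosin, was at 19.1, 17.4, 45.0 and 43.1 FPKM (1.22 and 1.29), MKI and HOMO lying together above WT and PKI. Alb was higher by 1.40 and 1.67, with PKI below the other columns.

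On the deposited scale long non-coding transcripts did not share the downward balance of the mRNA column. More were lower than higher after quantile normalization, and with TMM scaling 458 were lower and 230 higher. Of 6181 kept 402 (6.5%) were 2-fold higher in MKI and 387 (6.26%) lower, with a median of 0.23; after quantile normalization 297 (4.81%) were higher and 387 (6.26%) lower, with a median of 0.04. Of 878 Ensembl transcripts 64 were higher and 128 lower (median 0.02, or -0.09 after quantile normalization), and of 5303 assembled by the authors 338 were higher and 259 lower (median 0.24). Of 14 with a mean of 100 FPKM or more over the 4 columns 12 were 2-fold lower (median -2.85), but after quantile normalization 6 were lower and 4 higher (median -0.32). Of 5355 under 2 FPKM 313 were lower, most of the 387. The 10 most abundant of each column made up 78.2%, 86.4%, 20.8% and 79.8% of its kept FPKM. MSTRG.23398.6 stood at 14818, 29660, 2.92 and 13466 FPKM (-12.08), low in MKI alone, and ENSMUST00000127786 at 79.1, 1.34, 0.0283 and 0.222 FPKM (-7.23), low in PKI and HOMO as well. ENSMUST00000127786 was thus high in WT alone, the reverse of the Y-linked genes above. Sex and genotype cannot be told apart for it. The 5 largest differences upward were in transcripts listed at 0 in WT and PKI, such as MSTRG.10992.1 at 0, 0, 15.3 and 3.96 FPKM. For the most abundant transcripts the 2 scales disagreed, as for ENSMUST00000192833, with -4.47 as deposited and 0.00 after quantile normalization; MKI held 1 transcript at 500 FPKM or more and WT 8. The IDs are not paired with gene names in the tables used, so Meg3, Rian and Mirg were not analysed here as long RNAs.

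In HOMO minus PKI 2.83% of long non-coding transcripts were 2-fold higher and 4.29% lower. In the 2 pairs without a shared column 97 long non-coding transcripts were lower in both, 25.1% of the MKI list and 36.6% of the HOMO list, and 39 were higher in both, 9.70% and 22.3%. For microRNAs 85 were lower in both, 97.7% and 96.6% of the lists, and 0 higher. The share of the MKI list that was also found in HOMO was 2.41% for lower mRNA genes, where 1.32% of all genes were lower in HOMO than PKI, 25.1% for lower long non-coding transcripts, against 4.29%, and 97.7% for lower microRNAs, against 17.4%; the shares of all features differ by table as well.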

How the data were processed

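Long-RNA libraries came from oligo(dT)-selected embryo RNA, kept strand through dUTP and gave read pairs of 150 bases, per the labels' protocols; small-RNA preparation is not stated in the sources used here. The submitters' processing notes name GRCm38, StringTie 1.3.4d, HISAT2 2.0.4, cutadapt 1.9, DESeq2 and edgeR, the last pair without a version, and give no roles. FPKM is the unit assumed for the deposited long-RNA values, since the headers name none, and the depth behind them is unknown. The deposited microRNA values are RPM, from which whole reads were recovered for WT, MKI and HOMO (largest deviation from a whole read 0.00216). How 2 labelled samples became 1 column is not stated, so no model of spread could be fitted.

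Differences, quantile and TMM scaling (unweighted, against WT) were computed in Python with pandas and NumPy, and exact intervals with SciPy. Of 22036 Ensembl mRNA IDs 22022 matched a symbol. Steps were tested on simulated data. Members, gene lists and thresholds were chosen with earlier results of these data known. Genes named were drawn from the 12 largest differences each way at 5 FPKM or more on both scales, the 8 largest at 50 FPKM or more, up to 4 per list with the largest difference, the domain genes, 12 domain and 6 outside microRNAs each way, 5 long non-coding transcripts each way, and 6 genes each way from the maternal pairs. Not all of these are printed. Other members, mostly those above WT, were named after their values were seen. Alternatives were pseudocounts of 0.1 and 1, no filter, a stricter filter (5 FPKM, 2 FPKM or 100 RPM), quantile and TMM scaling and rescaling of microRNAs.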

Additional observations from a re-analysis of the deposited data

Results flagged for a closer look

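In 21 of the genes named by the rule or held in a gene list, the difference between MKI and WT and that between HOMO and PKI were past 2-fold in opposite directions. They are part of the 58 genes lower and 11 higher in MKI for which this holds over all genes. Whether the differences differ beyond the spread between embryos was not tested, since each genotype has 1 column.

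Higher in MKI than WT and lower in HOMO than PKI were Adam1a, a metalloprotease gene (1.72 and -1.08), and mt-Co3, a mitochondrial-encoded subunit of cytochrome oxidase (1.34 and -1.18). Gm49450 was listed at 0 in PKI and MKI and at 53.7 and 57.7 FPKM in WT and HOMO, so that its difference of -6.76 depends on the pseudocount and is no bound.

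The other 18 were list members lower in MKI than WT and higher in HOMO than PKI. Among blood genes the differences between MKI and WT were -1.26 for Hba-a1 and -1.33 for Hba-a2, adult-type alpha globins that are near copies of each other, -1.28 for Slc4a1, -1.03 for Rhd, -1.06 for Pklr, -1.43 for Gfi1b, -1.56 for Pf4 and -1.05 for Itga2b. For matrix genes they were -1.83 for Col2a1, -1.46 for Col11a2, -1.79 for Eln, which encodes elastin, and -1.70 for Hspg2, which encodes perlecan. They were -1.26 for Cryaa and -1.81 for Cryge, which encode lens crystallins, -1.47 for Ahsg and -2.17 for Serpina1b of liver, -1.23 for Dbx1 of neural progenitors and -1.89 for Hist1h2bj. In these 18 genes PKI also stood below WT, as for Slc4a1, where PKI and MKI (23.2 and 16.8 FPKM) lay below WT and HOMO (41.6 and 52.7 FPKM).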

How the results depend on the processing

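No paired analysis was possible because each table holds 1 column per genotype, and for the same reason no replicate could be left out. Among the 51 list medians, 36 genes and 24 microRNAs recomputed, none was called in the opposite direction under the alternatives run; abundant long non-coding transcripts were not among them, and ENSMUST00000157463 went from -2.12 to 1.04 and MSTRG.33461.12 from -1.37 to 1.73 after quantile normalization. The 162 mRNA genes higher in MKI became 337 with no filter, 86 with the stricter filter, 642 after quantile normalization and 320 with TMM factors, and the 2532 lower became 1454 after quantile normalization. Genes lower in both maternal pairs went from 61 to 38 with the stricter filter, and those higher in both from 13 to 22 with a pseudocount of 0.1, 8 with the stricter filter and 21 after quantile normalization. Long non-coding transcripts higher in MKI went from 402 to 804 and 202 with pseudocounts of 0.1 and 1, 1067 with no filter, 67 with the stricter filter and 230 with TMM factors. Those lower went from 387 to 639, 183, 702, 101 and 458 under the same settings. MicroRNAs higher went from 13 to 83 with no filter, 6 with the stricter filter, 108 after quantile normalization and 4 after rescaling to the total outside the domain, and those lower from 87 to 162 with no filter. Filters change how many features are counted; the cause of the other shifts was not tested. Of 36 genes 9 moved with a pseudocount of 0.1 and 8 with 1, and of 24 microRNAs 13 moved after quantile normalization, as did the median of the domain microRNAs, to -3.99. The depth behind the FPKM values is unknown, so no counting error can be given for them.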
